A study of Homo sapiens with 4 samples.

Results

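LSD1, the histone demethylase encoded by KDM1A, was followed together with 8 genes of its CoREST complex and close relatives: KDM1B, RCOR1, RCOR2, RCOR3, HDAC1, HDAC2, PHF21A and ZNF217. The members were chosen by gene name, and every probe set that the platform annotation gives to 1 of these 9 genes alone was read. They were 17 probe sets of 54613 tested, and 9 genes of the 19775 that have such a probe set. A probe set is a group of short array probes that reads 1 transcript or a few. KDM1A, RCOR2, HDAC1 and ZNF217 had 1 probe set each, KDM1B, RCOR1 and HDAC2 had 2, RCOR3 had 3 and PHF21A had 4.

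RNA came from HepG2, an established human hepatoma cell line, on 4 HG-U133_Plus_2 arrays, 1 array per sample. Of the 2 knockdown arrays, labelled LSD1-KD, 1 carried cells given siRNA-1 against LSD1 and 1 carried cells given siRNA-2 against LSD1; the 2 control arrays carried cells given siRNA against GL3. All cells grew in 25 mM glucose with 10% serum, received a small interfering RNA (siRNA) when about 50% confluent, and were collected after 4 days. The model is thus a transient knockdown in 1 tumour line with each LSD1 siRNA on a single array. No label states separate cultures within a group, so p-values reflect the spread among these 4 arrays alone, and that spread may be technical. Where the 2 knockdown arrays are taken as 1 group, their spread also holds any difference between siRNA-1 and siRNA-2.

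As background, LSD1 is a flavin-dependent enzyme that removes methyl groups from mono- and dimethylated lysine 4 of histone H3, a mark of active promoters and enhancers. On nucleosomes it works with a CoREST scaffold protein (RCOR1, RCOR2 or RCOR3), which also holds the deacetylases HDAC1 and HDAC2, so that acetyl and methyl marks can be removed by 1 complex. PHF21A reads histone H3 without the methyl mark, and DNA-binding zinc finger proteins such as ZNF217 bring the complex to its targets. KDM1B (LSD2) is the other flavin-dependent lysine 4 demethylase and works outside CoREST.

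The deposited values are log values from RMA, a method that corrects, normalizes and summarizes the probes. Their base was not given in the sources used here and was taken as 2, on which all folds and percentages rest, and the authors had set the median of the 4 arrays to 0 in each probe set. Levels are therefore gone and members cannot be ranked by abundance; what remains is how the arrays of a probe set differ. Where the groups do not overlap, this centring also gives the inner knockdown array and the inner control array the same value with opposite signs. The siRNA-2 array stood apart from the other arrays, with an SD over probe sets of 0.384, against 0.197 with siRNA-1 and 0.164 and 0.154 on the controls. Array controls instead split both knockdown arrays from both controls. Hybridization spike-ins, added in fixed amounts, had medians of 0.64 with siRNA-1 and 0.69 with siRNA-2, against -0.71 and -0.64 on the controls. The 5′ relative to the 3′ probe set of ACTB, a sign of RNA or labelling quality, was -0.26 and -0.38 on the knockdown arrays, against 0.34 and 0.23 on the controls. Their part in the results was not tested. The labelled cell type could be checked only through the numeric step of the values, a rough stand-in for brightness. It placed 71.4% of 21 hepatocyte marker probe sets in the brightest class, against 14% of 43 probe sets for fibroblast, immune and endothelial markers and 26.4% of all. The hepatocyte marker probe sets had a median difference of 0.47, and in 17 of 21 the knockdown arrays were both above the controls (in 0 both below). Those of the other cell types had a median of 0.00, with 9 of 43 higher and 6 lower. Over all probe sets tested the median was -0.01, with 21.6% higher and 25.3% lower.

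**Figure D1:**
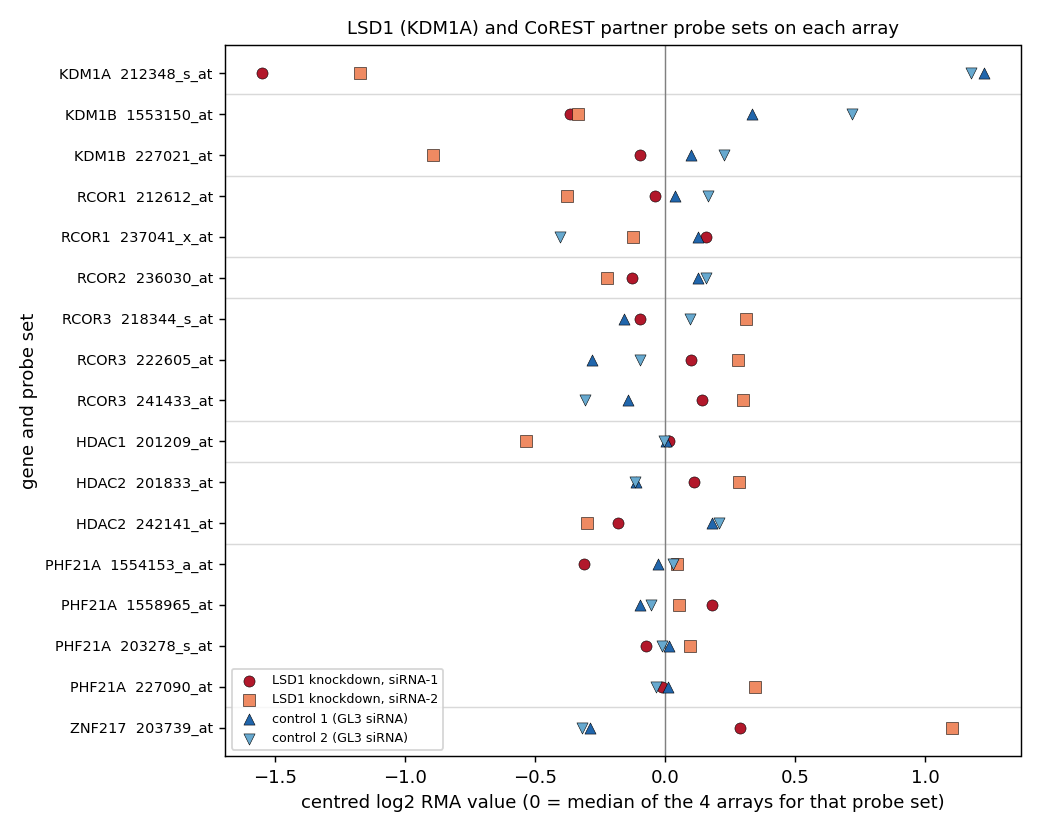
Centred log2 RMA value (horizontal axis, 0 is the median of the 4 arrays for that probe set) of the 17 probe sets of LSD1 and its partners (rows), 1 point per array. KDM1A has the widest gap, with knockdown arrays at -1.55 and -1.17 and controls at 1.23 and 1.17. In 11 of the 17 rows the groups do not overlap. Over all probe sets tested, both knockdown arrays lie above both controls in 21.6% and below in 25.3%.

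KDM1A, the targeted gene, was read by probe set 212348_s_at. Its value was -1.55 on the siRNA-1 array and -1.17 on the siRNA-2 array, against 1.23 and 1.17 on the control arrays. Both knockdown arrays lay far below both controls, and the controls differed by 0.05. Relative to the control mean, 14.8% of the signal was left with siRNA-1 and 19.3% with siRNA-2. In bulk RNA, fewer cells with the transcript and less transcript per cell cannot be told apart. Of all 54613 probe sets, the KDM1A probe set had the 10th largest absolute difference with siRNA-1 and the 124th with siRNA-2. The target was thus low on both arrays labelled for it. Knockdown minus control was -2.56 ± 0.16 (SE, n = 2 per group; 95% interval -2.99 to -2.14), with a limma adjusted p of 0.097 over all probe sets, so KDM1A did not pass the 0.05 threshold. No probe set passed in this comparison (0.0% of 54613), while 7570 (13.9%) had an unadjusted p under 0.05, KDM1A among them. Without the siRNA-1 array the fit is that of siRNA-2 against the controls, described below, with a difference of -2.37. With quantile normalization KDM1A passed, lower (limma adjusted p = 0.0379), as 1 of 797 probe sets that passed there. With control 1 left out its adjusted p was 0.999, and with control 2 left out 0.967.

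KDM1B, the second demethylase of the family, had lower values with LSD1 siRNA in both of its probe sets. Probe set 1553150_at read -0.37 on the siRNA-1 array and -0.33 on the siRNA-2 array, against 0.33 and 0.72 on the controls, so the knockdown arrays were alike and the spread lay between the controls. It differed by -0.88 ± 0.16 (SE, n = 2 per group, limma adjusted p = 0.221). By the numeric step this probe set belongs to the dim class. Probe set 227021_at, in the brightest class, read -0.10 on the siRNA-1 array and -0.89 on the siRNA-2 array, against 0.10 and 0.22 on the controls. Here the siRNA-2 array alone was far below the controls. The pooled difference was -0.66 ± 0.28 (SE, n = 2 per group, limma adjusted p = 0.401). A test of each siRNA alone sets 1 array against the 2 controls, assumes that it varies as they do, and was passed by 13.7% of all probe sets with siRNA-2. In that test 227021_at was at -1.05 ± 0.10 with siRNA-2 (SE, 1 array against 2, limma adjusted p = 0.03) and at -0.26 ± 0.10 with siRNA-1 (adjusted p = 0.272). The siRNA-2 value passed the threshold but has no replicate. The difference between the siRNAs was -0.79 (95% interval -1.15 to -0.43, limma adjusted p = 0.0843) and did not pass.

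None of the probe sets for the CoREST scaffolds passed the pooled test. RCOR1, the founding scaffold that ties LSD1 to the deacetylases, read -0.04 on the siRNA-1 array and -0.38 on the siRNA-2 array, against 0.04 and 0.17 on the controls, in probe set 212612_at. The groups did not overlap, but the gap between the siRNA-1 array and the nearer control was small. The difference was -0.31 (95% interval -0.72 to 0.11, limma adjusted p = 0.457). Its other probe set, 237041_x_at, read 0.16 and -0.12 on the knockdown arrays, against 0.12 and -0.40 on the controls. These groups overlapped, and the controls differed by more (0.53) than the knockdown arrays did (0.28). The suffix _x_at marks probes that can match other transcripts too.

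RCOR2, a scaffold best known from embryonic stem cells and neural tissue, read -0.13 on the siRNA-1 array and -0.23 on the siRNA-2 array, against 0.13 and 0.16 on the controls (236030_at). The arrays within each group were close together and the groups were separate. It differed by -0.32 ± 0.11 (SE, n = 2 per group; 95% interval -0.60 to -0.03, limma adjusted p = 0.336), about the size seen for 212612_at of RCOR1.

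RCOR3 is the remaining scaffold. Probe set 241433_at read 0.14 on the siRNA-1 array and 0.30 on the siRNA-2 array, against -0.14 and -0.31 on the controls. Probe set 222605_at read 0.10 on the siRNA-1 array and 0.28 on the siRNA-2 array, against -0.28 and -0.10 on the controls. Both were higher on each knockdown array than on either control, with differences of 0.45 ± 0.13 and 0.38 ± 0.13 (SE, n = 2 per group, limma adjusted p = 0.294 and 0.343). The last probe set, 218344_s_at, read -0.10 on the siRNA-1 array and 0.31 on the siRNA-2 array, against -0.16 and 0.10 on the controls, so its groups overlapped. Its difference was 0.14 (95% interval -0.36 to 0.64).

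The deacetylases HDAC1 and HDAC2, close paralogs that remove acetyl groups from histones in CoREST and in the NuRD and SIN3 complexes, had no probe set past the pooled test. HDAC1 (201209_at) read 0.01 on the siRNA-1 array and -0.53 on the siRNA-2 array, against 0.00 and 0.00 on the controls. The siRNA-1 array was level with the controls and the siRNA-2 array was low. HDAC1 was at -0.53 ± 0.08 with siRNA-2 (SE, 1 array against 2, limma adjusted p = 0.0461), or 69.1% of the control mean, a value set against controls only 0.0074 apart and without a replicate. With siRNA-1 the difference was 0.01 (95% interval -0.23 to 0.26). The siRNAs differed by -0.55 (95% interval -0.83 to -0.27), which did not pass (limma adjusted p = 0.0918). Pooled over both siRNAs, HDAC1 had a difference of -0.26 (adjusted p = 0.624), a value that the siRNA-2 array decides.

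HDAC2 was read by a pair of probe sets that went opposite ways. In 201833_at, of the brightest class, HDAC2 read 0.11 on the siRNA-1 array and 0.28 on the siRNA-2 array, against -0.11 and -0.12 on the controls, a difference of 0.31 (95% interval 0.00 to 0.62, limma adjusted p = 0.361). In 242141_at it read -0.18 on the siRNA-1 array and -0.30 on the siRNA-2 array, against 0.18 and 0.21 on the controls, a difference of -0.43 (95% interval -0.73 to -0.14, limma adjusted p = 0.272). In each probe set both knockdown arrays lay outside the controls, and the controls differed by at most 0.03. The direction of HDAC2 messenger RNA is therefore not settled by these arrays; where in the gene each probe set lies was not analysed here.

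PHF21A (BHC80), the reader of unmethylated histone H3, showed the smallest differences. Its 4 probe sets had differences between -0.13 and 0.19, all with 95% intervals that span 0. Only 1558965_at, a dim probe set, had groups that did not overlap: it read 0.18 on the siRNA-1 array and 0.05 on the siRNA-2 array, against -0.10 and -0.05 on the controls. In 1554153_a_at the siRNA-1 array was low (-0.31) and the siRNA-2 array was not (0.05), against -0.03 and 0.03 on the controls. In 227090_at the siRNA-1 array was level (-0.01) and the siRNA-2 array higher (0.35), against 0.01 and -0.04 on the controls. The remaining probe set, 203278_s_at, had a difference of 0.01 (95% interval -0.30 to 0.32). Intervals of that width do not show that PHF21A was unaffected.

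ZNF217, a zinc finger protein that binds DNA, associates with CoREST and CtBP and is amplified in some carcinomas, was the partner with the highest difference. Its probe set 203739_at, of the brightest class, read 0.29 on the siRNA-1 array and 1.10 on the siRNA-2 array, against -0.29 and -0.32 on the controls. Both knockdown arrays were above the controls, and the siRNA-2 array was well above the siRNA-1 array. The signal was 151% of the control mean with siRNA-1 and 265% with siRNA-2. Against the controls ZNF217 was at 1.41 ± 0.08 with siRNA-2 (SE, 1 array against 2, limma adjusted p = 0.0255), past the threshold without a replicate, and at 0.59 ± 0.08 with siRNA-1 (adjusted p = 0.153). The difference between the siRNAs was 0.82 (95% interval 0.53 to 1.10, limma adjusted p = 0.0732) and did not pass. Over both siRNAs ZNF217 had a 2.0-fold difference (log2 difference 1.0 ± 0.29, SE, n = 2 per group, adjusted p = 0.296).

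**Figure D2:**
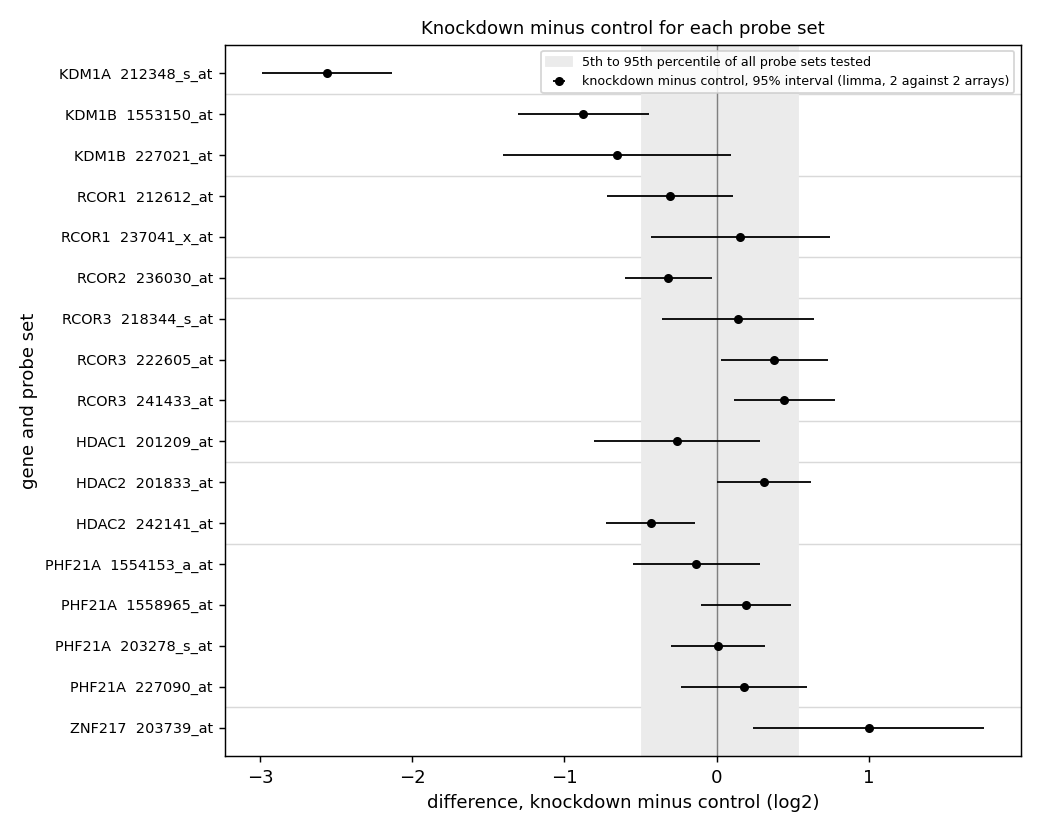
Knockdown minus control on the log2 scale (horizontal axis) for each of the 17 probe sets (rows), with the 95% interval of the limma fit of 2 against 2 arrays; the grey band runs from the 5th to the 95th percentile of all probe sets tested (-0.49 to 0.54). KDM1A (-2.56), both KDM1B probe sets (-0.88 and -0.66) and ZNF217 (1.0) have estimates outside the band.

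As a group, the 17 probe sets had 5 with both knockdown arrays above both controls and 6 with both below. These were 29.4% and 35.3% of the members, against 21.6% higher and 25.3% lower over all probe sets tested. Leaving KDM1A aside, 5 of 16 partner probe sets were higher and 5 lower. The median difference of the partners was 0.08, against -0.01 over all probe sets, and their median absolute difference was 0.31, against 0.16 over all. At an unadjusted p under 0.05 there were 7 of 16 partner probe sets (13.9% of all), and none passed after adjustment, as for all other probe sets. KDM1A was the one member at least 2-fold lower with each siRNA, as were 0.189% of all probe sets; 0 members were at least 2-fold higher with each, against 0.412% of all.

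Between the siRNAs none of the 16 partner probe sets passed the test. KDM1A stood at -2.37 for siRNA-2 and -2.75 for siRNA-1, which differ by 0.38 (95% interval 0.08 to 0.67) that did not pass (limma adjusted p = 0.139). In 12 of 16 partner probe sets the absolute difference from the controls was larger with siRNA-2, 75% of them, against 60.7% of all probe sets. The median absolute difference of the partners was 0.43 with siRNA-2 and 0.26 with siRNA-1, against 0.21 and 0.16 over all probe sets. With siRNA-2, 4 of the 17 probe sets passed (KDM1A, KDM1B 227021_at and HDAC1 lower, ZNF217 higher), and 13.7% of all probe sets did (7.56% higher, 6.1% lower). With siRNA-1 none of the 17 passed, and 0.0% of all did; 8 of the 17 and 21.5% of all had an unadjusted p under 0.05 in limma. For siRNA-2 against siRNA-1 KDM1A did not pass either (0.0% of all did), with 6 of the 17 and 27.1% of all at an unadjusted limma p under 0.05. These comparisons share their controls, and the siRNA-2 array, with its wider spread over probe sets (SD 0.384), is judged in them by the spread of the controls. Quantile normalization of the deposited values ended all 4 calls for siRNA-2, and without _x_at and _s_at probe sets that of HDAC1 ended (adjusted p = 0.0588).

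**Figure D3:**
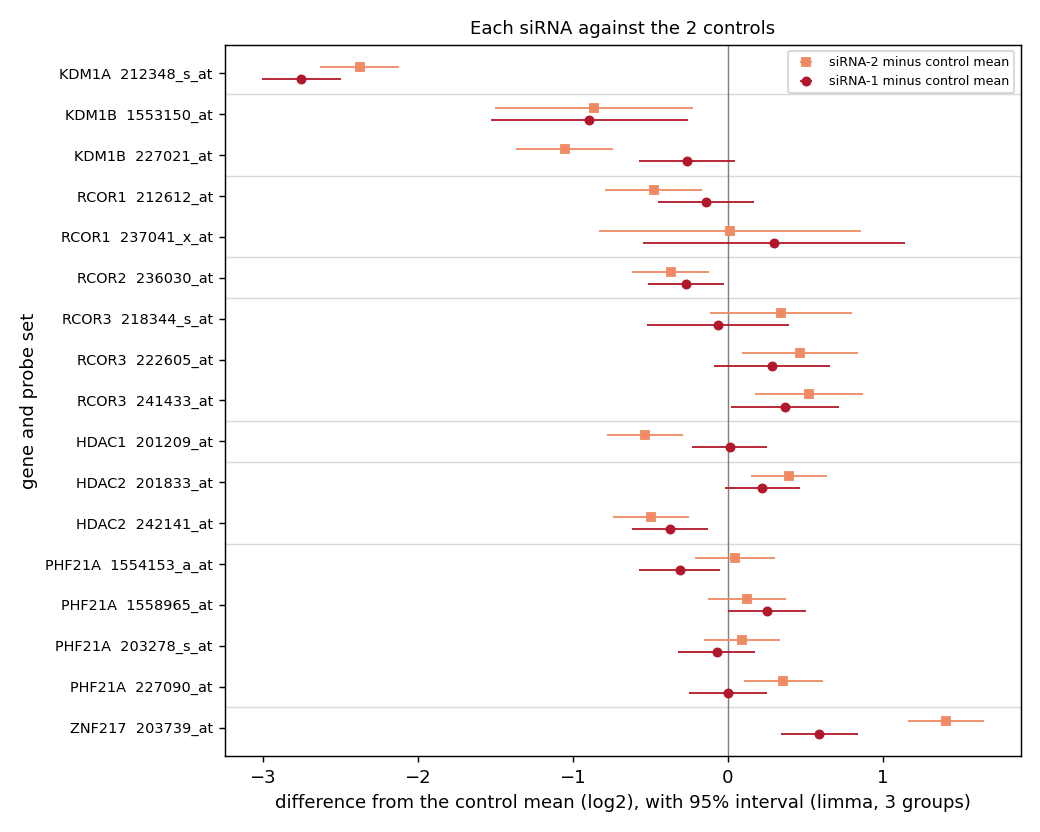
Difference from the control mean on the log2 scale (horizontal axis) with siRNA-2 (squares) and siRNA-1 (circles) for each probe set (rows), with 95% intervals of the limma fit with 3 groups. KDM1A lies closer to 0 with siRNA-2 (-2.37) than with siRNA-1 (-2.75), while KDM1B 227021_at, HDAC1 and ZNF217 lie farther from 0 with siRNA-2 (-1.05, -0.53 and 1.41) than with siRNA-1 (-0.26, 0.01 and 0.59).

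The probe sets most like that of KDM1A over the 4 arrays were found by the root mean square difference of the centred values. The nearest were a pair for EGR1, an immediate-early transcription factor, at 0.15 (201693_s_at) and 0.17 (201694_s_at) log2 units. EMP1, a membrane protein of epithelia, followed at 0.18 (201325_s_at, dim). Then came another EGR1 probe set at 0.19 (227404_s_at) and AQP3, a glycerol and water channel, at 0.22 (203747_at). EGR1 201693_s_at read -1.38 on the siRNA-1 array and -1.27 on the siRNA-2 array, against 1.27 and 1.39 on the controls. None of the 5 passed the pooled test (limma adjusted p from 0.0546 to 0.0682). The measure uses unscaled values, so it finds probe sets with a difference about as large as that of KDM1A. Partner differences ran only from -0.88 to 1.0, so the partners could not be among the 5.

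Beyond these members, related proteins were read from 6 lists with 56 measured genes and 172 probe sets. None passed in knockdown against control; 35 probe sets (20.3%) had both knockdown arrays above the controls and 53 (30.8%) had both below, against 21.6% and 25.3% of all. With siRNA-2 alone, 19 passed higher and 11 lower (17.4% together, against 13.7% of all). Of the 24 probe sets named from these lists, 11 moved by over 1.5 times when 1 array was left out. All 11 were larger with siRNA-2 and are given for each siRNA. Naming required both knockdown arrays beyond both controls, so probe sets apart with 1 siRNA alone were left out. Examples are JADE2 212660_at (-1.01 with siRNA-1, -0.02 with siRNA-2) and RERE 200940_s_at (0.001 with siRNA-1, 0.92 with siRNA-2). Other probe sets of a named gene can overlap between groups.

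Further cofactors of CoREST had 11 higher (26.2%) and 10 lower (23.8%) of 42 probe sets, against 21.6% and 25.3% of all. Their median difference was 0.05. GSE1, a subunit of CoREST complexes, read -0.46 on the siRNA-1 array and -0.42 on the siRNA-2 array, against 0.42 and 0.43 on the controls (212057_at). The knockdown arrays were alike and well below the controls, a difference of -0.87 ± 0.10 (SE, n = 2 per group, limma adjusted p = 0.170). Another GSE1 probe set (212056_at) had -0.71, and in 232988_at (0.08) the groups overlapped. The HMG-box subunit HMG20B (210719_s_at) was at 0.89 with siRNA-2 and 0.22 with siRNA-1. The zinc finger protein RREB1 (203704_s_at) was at 0.78 with siRNA-2 and 0.27 with siRNA-1. Of its other 6 probe sets, 215032_at (0.37) and 242297_at (0.34) were higher and 216648_s_at (dim) was lower (-0.16). In the rest the groups overlapped. With siRNA-2 the median difference of this list was 0.01, against -0.03 over all probe sets.

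Relatives of the scaffolds were read that share their ELM2 and SANT domains and also bind HDAC1 and HDAC2. They had 4 higher (14.8%) and 9 lower (33.3%) of 27 probe sets (median -0.07), against 21.6% and 25.3% of all. MTA3, a NuRD subunit, had both knockdown arrays above the controls in both of its probe sets. It was at 1.44 with siRNA-2 and 0.55 with siRNA-1 in 226852_at, and had a pooled difference of 0.50 in 223311_s_at. MIER1 was split, at -0.86 in 1555105_a_at and 0.21 in 225475_at, with the groups overlapping in 240227_at. MIER3 was at -0.34 (1553336_a_at). Of the other NuRD subunits, 7 of 30 probe sets (23.3%) were higher and 10 (33.3%) lower (median 0.07). GATAD2B (238076_at) was at 1.14 with siRNA-2 and 0.44 with siRNA-1. In GATAD2B 225393_at the groups overlapped, at 0.41 with siRNA-2 and -0.08 with siRNA-1. The remodelling enzyme CHD3 was split between probe sets: 208807_s_at was at 0.82 with siRNA-2 and 0.30 with siRNA-1, while 208806_at had both knockdown arrays below the controls (-0.39). The histone chaperone RBBP4 had 0.48 (225396_at) and 0.31 (210371_s_at). In its other probe sets, among them 217301_x_at (-0.05) and 244872_at (0.13), the groups overlapped. GATAD2A had -0.40 (222526_at). With siRNA-2 the median difference was -0.08 in the ELM2-SANT list and 0.12 among NuRD subunits, against -0.03 over all probe sets.

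The SIN3 complex had 4 higher (11.8%) and 11 lower (32.4%) of 34 probe sets (median -0.06), against 21.6% and 25.3% of all. SAP30L was split between probe sets, as HDAC2 was among the members: 225509_at was at 1.48 with siRNA-2 and 0.51 with siRNA-1, and 222831_at had a pooled difference of -0.75. SAP18 (208741_at) was at 0.74 with siRNA-2 and 0.17 with siRNA-1. Its 208740_at had a pooled difference of 0.25 with separate groups, and in 208742_s_at (-0.07) the groups overlapped. ING1 had a pooled difference of -0.39 (209808_x_at). Among HDAC3, HDAC8 and partners of HDAC3, 5 of 17 probe sets (29.4%) were higher and 7 (41.2%) lower (median -0.08). The deacetylase HDAC3 had 0.58. TBL1XR1, a subunit of the NCoR corepressor, had -0.88 and -0.45 in 222634_s_at and 221428_s_at of its 6 probe sets, and in 222633_at it was at -0.68 for siRNA-2 and -0.19 for siRNA-1. With siRNA-2 the median difference was -0.01 in the SIN3 list and -0.07 in that of HDAC3, against -0.03 over all probe sets.

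A last list held GLYR1, the partner of KDM1B, enzymes that add or remove ubiquitin on LSD1, and genes that supply its flavin cofactor. Of 22 probe sets 4 were higher (18.2%) and 6 lower (27.3%), against 21.6% and 25.3% of all (median -0.06). USP28, a deubiquitinase that stabilizes LSD1, read 0.32 on the siRNA-1 array and 0.42 on the siRNA-2 array, against -0.32 and -0.35 on the controls (230623_x_at). Both knockdown arrays were above both controls by a similar step, a difference of 0.70 ± 0.11 (SE, n = 2 per group, limma adjusted p = 0.199). USP28 231837_at was at 0.67 with siRNA-2 and 0.27 with siRNA-1. In the remaining USP28 probe set, 1552678_a_at, the groups overlapped, at 0.33 with siRNA-2 and -0.35 with siRNA-1. FLAD1, which makes the cofactor FAD, was at -0.91 with siRNA-2 and -0.09 with siRNA-1 (205661_s_at). The riboflavin transporter SLC52A2 was at -0.76 with siRNA-2 and -0.17 with siRNA-1 (222155_s_at). With siRNA-2 the median difference of this list was -0.06, against -0.03 over all probe sets.

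**Figure D4:**
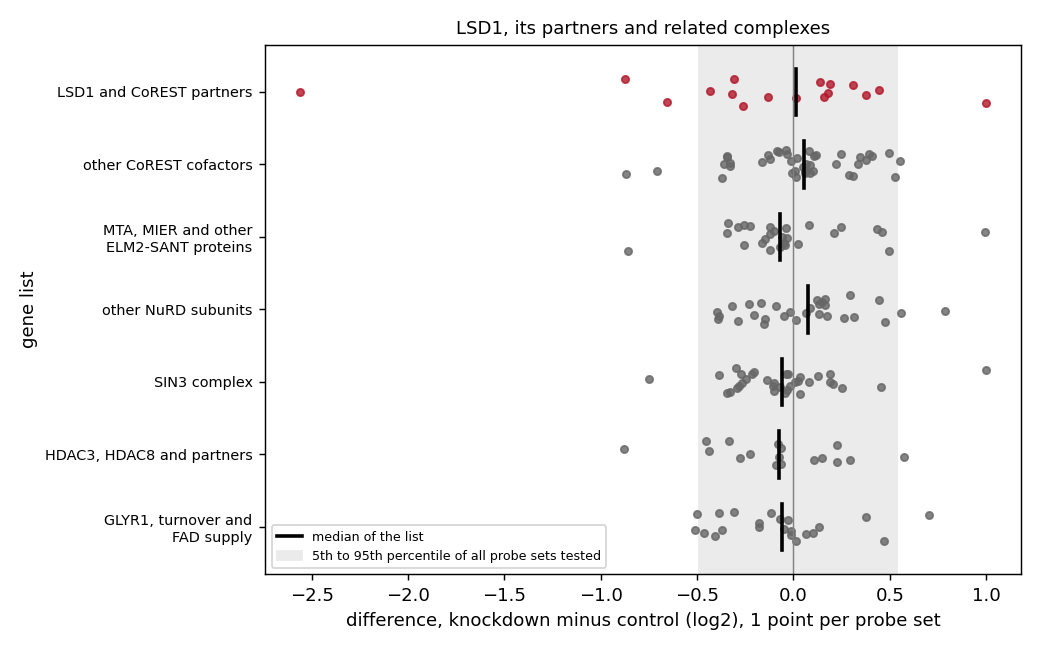
Knockdown minus control on the log2 scale (horizontal axis) for each probe set (points) of LSD1 and its partners and of 6 related lists (rows), with the median of each list as a black bar and the 5th to 95th percentile of all probe sets tested in grey. All list medians lie between -0.08 and 0.07, and KDM1A at -2.56 is the farthest point.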

How the data were processed

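RMA produced the authors' deposited log values, read here as log2, for the 4 arrays, per the submitters' processing notes. Software version, log base (taken as 2) and joint or separate normalization were not given in the sources used here. From the values, each probe set was centred on its median (largest deviation 5.0e-07). Gene names came from the platform annotation, updated through gene identifiers: 41091 had 1 gene, 1801 several, 11721 are unnamed here, and 62 Affymetrix controls were left out of tests. Some genes on the lists, among them BRMS1L, ARID4A, SLC52A1, HNF4A and CD68, were not analysed here.

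Groups came from sample titles. The 2 knockdown arrays were tested against the 2 controls over 54613 probe sets with limma 3.58.1 (R 4.3.3; moderated linear model, two-sided, Benjamini-Hochberg adjustment, threshold 0.05). Each siRNA was tested in a model with 3 groups, whose spread comes from the controls. The code was tested on simulated data. With 2 against 2 arrays the smallest exact permutation p is 0.33, so none was run. The number of arrays limits the precision. Brightness classes come from the single-precision step of the values (8 or above, 4 to 8, below 4), and chance lifts about 1 row in 8 by a class.

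Named genes were all members, the probe sets with the largest difference among those separated between groups in each related list (up to 4), and the 5 probe sets nearest to KDM1A. Members, lists and tests were chosen with earlier results of these data known.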

Additional observations from a re-analysis of the deposited data

Results flagged for a closer look

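The hybridization spike-ins, control transcripts outside the gene tests, were higher on the knockdown arrays than on the controls by a median of 1.36 log2 units over 18 probe sets, which is why they were singled out. Poly-A spike-ins, added before labelling, had a median difference of 0.27 over 27 probe sets. The 5′ relative to the 3′ probe set of ACTB differed by -0.61, and that of GAPDH by -0.18.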

How the results depend on the processing

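The number of probe sets past the threshold in knockdown against control was 0; it was 1 with 1 probe set per gene, 1 without _x_at and _s_at probe sets, 9 with arrays centred on their medians and 797 with quantile normalization, which gives the centred arrays 1 common spread. Leaving out 1 array gave 0 to 7460, the highest without the siRNA-1 array. Of the members, 1 passed with quantile normalization (KDM1A), and 0 to 4 when 1 array was left out. For siRNA-1, 475 probe sets and 1 member passed with arrays centred on their medians. For siRNA-2, against 7460 probe sets and 4 members, there were 4599 with 1 probe set per gene, 11532 and 10 without dim probe sets, 3528 and 2 once _x_at and _s_at sets were left out, 11205 and 8 with centred arrays, and 0 and 0 with quantile normalization. Between the siRNAs, 1347 and 1 passed with 1 probe set per gene, 5473 and 3 without dim probe sets, and 4729 and 2 with centred arrays. The cause of these moves was not tested. For single probe sets with a test, 748 values under alternatives kept direction and side of the threshold, 58 newly passed (28 of them without the siRNA-1 array), 5 no longer passed and 6 turned. A single siRNA array against 1 control has no test: 65 such values kept their direction and 3 turned, all without control 2. With 1 control left out, these ran from -0.19 to 0.063 (RCOR3 218344_s_at, siRNA-1), -0.022 to 0.026 (PHF21A 227090_at, siRNA-1) and -0.25 to 0.28 (RCOR1 237041_x_at, siRNA-2). Members higher on both knockdown arrays were 5, 3 with 1 probe set per gene, and 6 to 9 when 1 array was left out; those lower were 6, 4 with 1 probe set per gene, 5 without dim probe sets, 5 without _x_at and _s_at sets, and 6 to 8 when 1 array was left out. Leaving out 1 array turned the direction of HDAC1 (-0.53 to 0.014), PHF21A 1554153_a_at (-0.31 to 0.045) and 203278_s_at (-0.072 to 0.094), RCOR1 237041_x_at (-0.11 to 0.42) and RCOR3 218344_s_at (-0.063 to 0.34). With the replicate number as a block 0 probe sets passed, and KDM1A had a limma adjusted p of 0.435. The within-group deviations of same-numbered arrays had r = 0.0354. The knockdown arrays also differ in their siRNA, so this value cannot decide whether the numbers pair arrays. The fit without the block had 0 calls, so the block had none to remove.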

Other observations

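Transcripts on the strand opposite to members were read by a pair of probe sets, picked after their values were seen. HDAC2-AS2 (1559620_at, dim) read 0.23 on the siRNA-1 array and 0.02 on the siRNA-2 array, against -0.02 and -0.04 on the controls. ZNF217-AS1 (215861_at) read 0.07 on the siRNA-1 array and 0.00 on the siRNA-2 array, against -0.01 and 0.00 on the controls.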
